A study of Homo sapiens with 15 samples.

Results

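Keratins are the intermediate filament proteins of epithelial cells. Here 8 keratin genes were looked up by symbol in an expression table of human renal epithelial cells and dermal fibroblasts, and 7 of its 15790 genes were members: KRT8, KRT18, KRT19, KRT7, KRT80, KRT10 and KRT17. KRT23 was not analysed here. The epithelial cells were RPTEC/TERT1, an immortalized line from the renal proximal tubule. They grew for 14 days on an LN/FN-silk membrane, which contains recombinant spider silk, or on an LN/PC membrane, either alone (monoculture) or with fHDF/TERT166, an immortalized line of dermal fibroblasts (co-culture). Fibroblasts alone made the fifth group, and each of the 5 groups had 3 libraries. The seeding density per cm2 was 140000 for epithelial cells and 14000 for fibroblasts.

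Each cell type was a single immortalized line, and 3 to 8 membranes were pooled for a sample. Silk was harvested by scraping and LN/PC by cutting the membrane from its holder, so the effect of the membrane and that of harvest cannot be told apart. The fibroblasts of the fifth group were taken from the well bottom; their titles name them monocultures, whereas the protocol describes them as basolateral. The labels do not state that replicates were separate cultures, so p-values measure only how these samples scatter, which may be technical.

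Keratins assemble as heteropolymers of a type I (acidic) and a type II (basic) partner, and a partner left unpaired is usually degraded. KRT8 (type II) and KRT18 (type I) are the first pair of simple epithelia such as kidney tubules. KRT19 (type I) and KRT7 (type II) are typical of ducts and of many simple epithelia. KRT10 (type I) is best known from the suprabasal epidermis, KRT17 (type I) from skin appendages and wounded epithelium, and KRT80 is a less studied type II keratin. Keratin filaments are anchored at desmosomes between cells and at hemidesmosomes on the basement membrane.

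Values below are normalized counts, that is, reads per gene scaled to a common library depth. The deposited log2 values were turned back to this scale. The 15 libraries totalled 9.08 to 12.7 in units of 1e6 normalized counts, and 1 read was worth about 0.751 to 1.26 of them. All 9 listed markers of renal epithelium were in the table; they summed to 0.903 to 5.76 in the fibroblast libraries, with PAX2, CDH1, CDH16 and CDH6 among those at 0 there. The 14 fibroblast markers summed to 542410 to 616730 in fibroblasts. On silk the sum was 2238 to 2998 in monoculture and 2844 to 3204 in co-culture, and on LN/PC it was 3276 to 4361 in monoculture and 103000 to 182880 in co-culture. From 112 fibroblast-specific genes the fibroblast share of RNA was 13.9%, 9.81% and 15.2% in LN/PC co-cultures 1 to 3, against 0.0239%, 0% and 0.113% in silk co-cultures 1 to 3; POSTN and TWIST1 were at 0 in all 3 silk co-cultures. Each share is a median over genes that spread widely. FAP averaged 730 in LN/PC co-cultures and 1600 in fibroblasts, whereas PDGFRB averaged 506 and 8069. The mixture levels and subtractions below rest on these medians and are uncertain to that extent. In these bulk samples fewer cells of a type and less RNA per cell cannot be told apart. Of the 8 listed proximal tubule markers 5 were in the table, and 3 of them were higher in fibroblasts than in epithelial monocultures, ANPEP with 11041 in fibroblasts and 2023 in silk monocultures. SLC12A1, the cotransporter of the thick ascending limb, averaged 5011 on silk and 10589 on LN/PC in monoculture and 0 in fibroblasts. The libraries are therefore called renal epithelial, without a tubule segment.

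**Figure D1:**
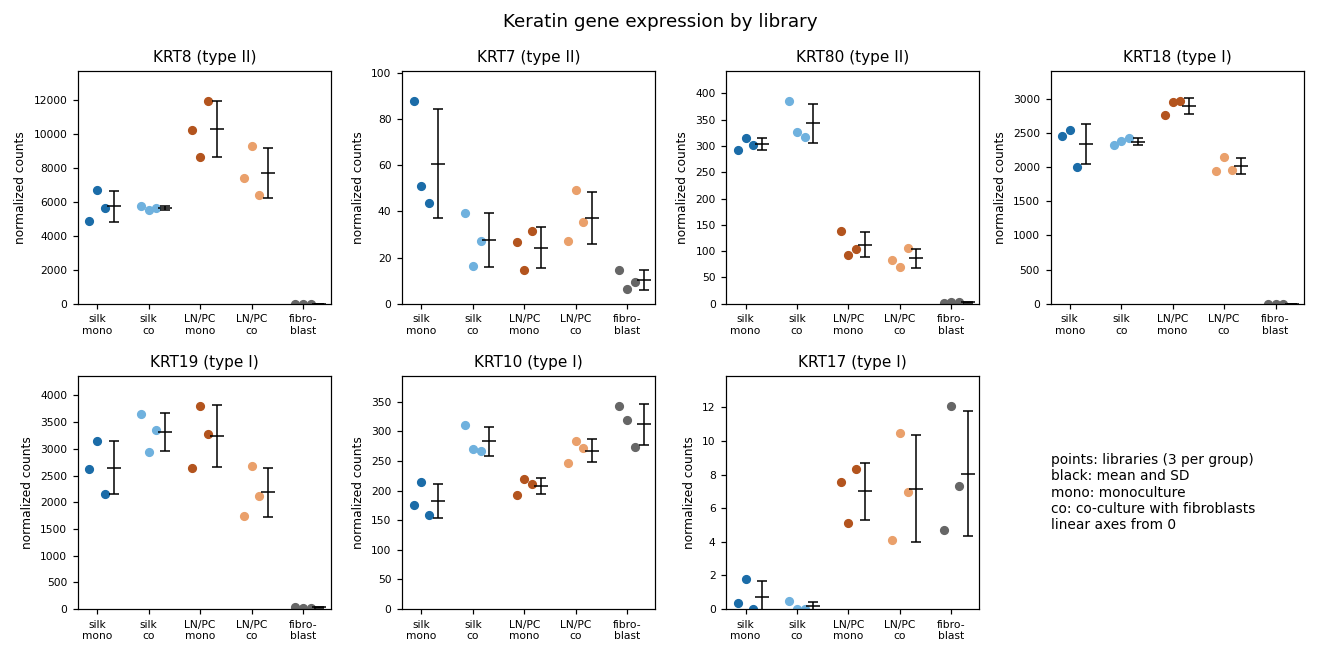
Normalized counts (y axis, linear from 0) of the 7 keratins, 1 panel a gene, in the 5 groups (x axis), with 1 point for each of the 3 libraries in a group and the mean with its SD in black. KRT8, KRT18 and KRT19 are the 3 highest members in every epithelial group, and KRT80 is higher on silk than on LN/PC. KRT10 has its highest mean in the fibroblasts, whose range overlaps those of both co-culture groups.

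Fibroblasts held very little of the simple-epithelial keratins, and KRT10 was the exception among the tested members. KRT18 was at 0 in each of the 3 fibroblast libraries, while the 6 epithelial monocultures ranged from 2004 (silk 3) to 2966 (LN/PC 3). With a floor of 3 reads per library, KRT18 was at least 857-fold lower in fibroblasts than the mean of both epithelial monocultures. Against silk monocultures alone the bound was 765-fold, and against LN/PC monocultures 949-fold. KRT8 stood at 0.938, 6.63 and 6.53 normalized counts in fibroblasts 1 to 3, against 4874 to 11954 in epithelial monocultures, a log2 fold change of -10.63 ± 0.37 (limma, adjusted p = 4.6454e-10). Fibroblast library 1 lay under the floor of 3 reads, and without it the log2 fold change was -9.98. KRT80 stood at 1.20, 3.57 and 3.82, a few reads a library, against 92.8 to 316 in epithelial monocultures. KRT19, at 36.5, 27.6 and 25.1, was detectable in every fibroblast library but 98.8-fold lower than in epithelium (log2 fold change -6.57 ± 0.17 SE, adjusted p = 4.7071e-11). The fibroblast libraries did not overlap the epithelial ones for KRT8, KRT18, KRT19 or KRT80.

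KRT10 went the other way. It stood at 342, 319 and 274 normalized counts in fibroblasts 1 to 3, 176, 214 and 158 in silk monocultures 1 to 3, and 193, 219 and 210 in LN/PC monocultures 1 to 3. All 3 fibroblast values lay above all 6 epithelial ones, and the difference was 0.68 ± 0.15 on the log2 scale (adjusted p = 0.0026949). Of the 6 keratins that could be tested, 1 was higher and 5 were lower in fibroblasts, where 58.3% of all genes tested were called, 28% higher and 30.3% lower. KRT7 was among the lower ones (log2 fold change -1.83 ± 0.36, adjusted p = 0.0011276), though its fibroblast values of 14.8, 6.20 and 9.54 overlapped the lowest epithelial library, LN/PC monoculture 2 at 14.6. Tests here and below are limma's moderated test on log2(normalized count + 1) with Benjamini-Hochberg adjustment over all genes tested (14433 among epithelial groups, 14502 here), called at an adjusted p under 0.05, and every error of a log2 fold change is its SE with n = 3 libraries a group. KRT17 was too low for the filter and was not tested.

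KRT10 is shown with its promoter because it was the tested member that was higher in fibroblasts. RefSeq promoter sequence was matched for 2 of the 8 listed genes. The 250 bases before the RefSeq start of KRT10 (GRCh38.p14, chr17:40822615-40822864, minus strand), with a TATAAA match in capitals, read:
KRT10: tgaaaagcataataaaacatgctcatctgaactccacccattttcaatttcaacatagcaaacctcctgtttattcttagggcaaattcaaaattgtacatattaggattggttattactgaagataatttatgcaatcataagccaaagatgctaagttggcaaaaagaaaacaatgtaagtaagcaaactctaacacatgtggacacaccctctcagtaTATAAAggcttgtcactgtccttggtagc
The match begins 29 bases before the start. Searched on both strands in windows of the same length, TATAAA occurred in 10.7% of 35116 RefSeq promoters. GGGCGG, found in 42.6% of them, and TGANTCA, found in 6.57%, had no match in the KRT10 window.

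Levels can be compared between genes after division by transcript length. In silk monocultures KRT8 averaged 2706 normalized counts per kb, followed by KRT19 at 1903, KRT18 at 1495, KRT10 at 85.9, KRT80 at 78.7, KRT7 at 34.6 and KRT17 at 0.437. The ranges of KRT19 and KRT18 overlapped there, as did those of KRT10 and KRT80, while the other neighbours in this order did not overlap. In LN/PC monocultures the averages per kb were 4844 for KRT8, 2329 for KRT19, 1854 for KRT18, 97.6 for KRT10, 28.96 for KRT80, 13.8 for KRT7 and 4.25 for KRT17. The order of the means was the same on both membranes, and on LN/PC only KRT19 and KRT18 overlapped among neighbours. In silk co-cultures the averages per kb were 2659 for KRT8, 2384 for KRT19, 1518 for KRT18, 133 for KRT10, 88.8 for KRT80, 15.8 for KRT7 and 0.0931 for KRT17, with overlap between KRT8 and KRT19 only. In LN/PC co-cultures they were 3631 for KRT8, 1570 for KRT19, 1291 for KRT18, 126 for KRT10, 22.3 for KRT80, 21.2 for KRT7 and 4.34 for KRT17, with overlap between KRT19 and KRT18 and between KRT80 and KRT7. Fibroblasts had another order of the means per kb, with KRT10 at 147, KRT19 at 21.4, KRT7 at 5.80, KRT17 at 4.87, KRT8 at 2.21, KRT80 at 0.741 and KRT18 at 0. The neighbours from KRT7 to KRT80 overlapped there, so their order is not settled. KRT7, KRT17, KRT8 and KRT80 had about 30, 24, 14 and 9 reads over the 3 fibroblast libraries. In monoculture KRT8 made up 43.0% of the summed member level per kb on silk and 52.7% on LN/PC, and KRT10 made up 80.7% in fibroblasts.

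Between the membranes in monoculture, KRT8 was lower and KRT80 was higher on silk. KRT8 stood at 4874, 6721 and 5666 normalized counts on silk and at 10280, 8662 and 11954 on LN/PC in monocultures 1 to 3. No silk library reached the lowest LN/PC library, and the means were 5754 ± 927 and 10299 ± 1646 (SD, n = 3). The log2 fold change was -0.84 ± 0.18 (limma, adjusted p = 0.009474). KRT80 stood at 293, 316 and 302 on silk and at 138, 92.8 and 104 on LN/PC. Each silk library was above each LN/PC library, with a log2 fold change of 1.45 ± 0.21 (adjusted p = 0.00052147). So 1 member rose and 1 fell of 6 tested, beside 11.7% of all genes called, 5.88% higher and 5.79% lower. KRT8 and KRT80 passed under each alternative run for this comparison, KRT8 with log2 fold changes from -0.96 to -0.73. The share of counts from mitochondrial genes also differed, at 6.58%, 4.67% and 4.23% on silk and 2.12%, 3.80% and 1.5% on LN/PC, and its part in these differences was not tested. Of 7 listed markers of distal tubule and collecting duct 2 were in the table, and both were lower on silk in monoculture: SLC12A1 (-1.13, adjusted p = 0.0035465) and AQP3, a water channel of the collecting duct (-2.65, adjusted p = 0.00076949), at means of 8.20 on silk and 55.1 on LN/PC. Their part in the keratin differences was not tested.

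The other members did not pass the test in this comparison. KRT18, the partner of KRT8, stood at 2449, 2551 and 2004 on silk and at 2765, 2957 and 2966 on LN/PC. The LN/PC values were all above the silk values, but the log2 fold change was -0.32 ± 0.13 (adjusted p = 0.12957). KRT7 stood at 87.6, 50.8 and 43.5 on silk and at 26.9, 14.6 and 31.4 on LN/PC, again without overlap (log2 fold change 1.29 ± 0.41, adjusted p = 0.054391). KRT7 passed with the deposited log2 values as they stand (adjusted p = 0.04189), with upper-quartile scaling (adjusted p = 0.04241) and with a pseudocount of 5 (adjusted p = 0.04385). KRT19 and KRT10 overlapped between the membranes, with log2 fold changes of -0.29 ± 0.19 and -0.19 ± 0.18. Over all 6 tested members the median difference was -0.24, and over all genes 0.03.

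In co-culture KRT80 and KRT19 were higher on silk. KRT80 stood at 385, 326 and 317 normalized counts on silk and at 83.0, 69.4 and 106 on LN/PC in co-cultures 1 to 3. The groups were far apart, with a log2 fold change of 2.00 ± 0.21, or 3.99-fold (limma, adjusted p = 3.6329e-06). KRT80 passed here too under each alternative run, at 1.58 on epithelium-restricted scaling and 1.80 with the estimated fibroblast RNA subtracted. KRT19 stood at 3644, 2942 and 3354 on silk and at 1747, 2676 and 2124 on LN/PC, without overlap, with a log2 fold change of 0.62 ± 0.19 (adjusted p = 0.018623). Thus 2 of 6 members rose and 0 fell, while 36.1% of all genes were called, 18.5% higher and 17.6% lower. The membrane comparisons in monoculture and in co-culture contrast different libraries. They are not independent tests, because both come from 1 fit of the 12 epithelial libraries with a common estimate of spread. Both also carry the difference in harvest.

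KRT19's difference in co-culture depended on the processing. With the estimated fibroblast RNA subtracted it was 0.42 (adjusted p = 0.0985), and with libraries scaled on 317 epithelium-restricted genes it was 0.20 (adjusted p = 0.3748). It also missed the threshold without LN/PC co-culture 1 (0.47, adjusted p = 0.1066), silk co-culture 1 (0.55, adjusted p = 0.07335) or silk co-culture 3 (0.61, adjusted p = 0.05955). KRT8 went the other way under these settings. It stood at 5766, 5543 and 5648 in silk co-cultures and at 7431, 9319 and 6408 in LN/PC co-cultures, without overlap (log2 fold change -0.43 ± 0.18, adjusted p = 0.077782). With the fibroblast RNA subtracted the KRT8 difference was -0.63 (adjusted p = 0.01568), and on epithelium-restricted scaling -0.85 (adjusted p = 0.002927). It also passed without LN/PC co-culture 3 (-0.56, adjusted p = 0.04038), without LN/PC monoculture 2 (adjusted p = 0.04734) and with only these 6 libraries in the fit (adjusted p = 0.03229).

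KRT18, at 2318, 2377 and 2421 in silk co-cultures and 1938, 2150 and 1962 in LN/PC co-cultures, had a log2 fold change of 0.24 ± 0.13 (adjusted p = 0.18061), which turned to -0.19 on epithelium-restricted scaling. That scaling shifted the median of all genes in this comparison to -0.39. KRT10 was 0.08 ± 0.18 (adjusted p = 0.74797) and turned to -0.34. KRT7 stood at 39.4, 16.1 and 27.4 on silk and at 27.2, 49.4 and 35.2 on LN/PC, so that its groups overlapped (log2 fold change -0.46 ± 0.41, adjusted p = 0.40254).

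**Figure D2:**
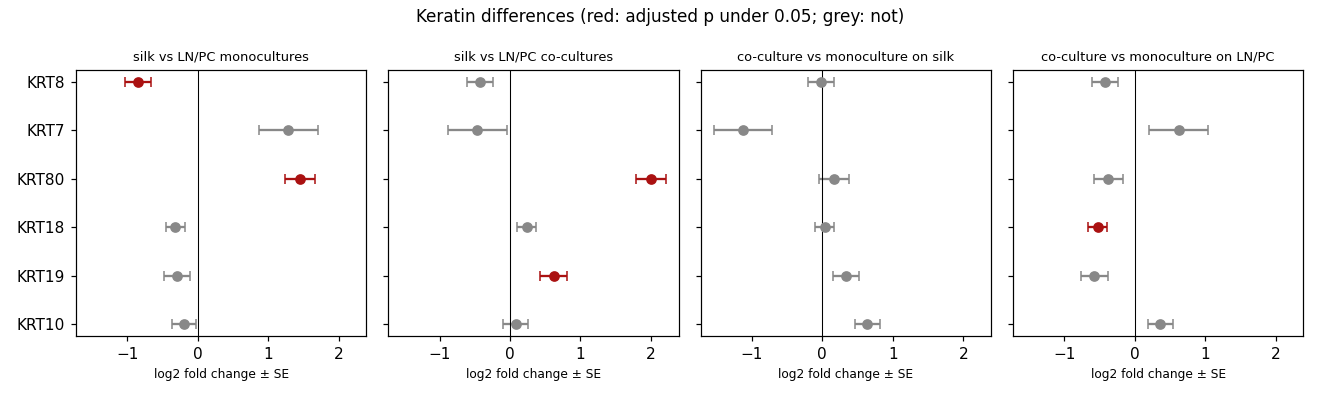
Log2 fold changes of the 6 tested keratins in 4 comparisons among epithelial groups, with SE bars; red points had an adjusted p under 0.05 and grey points did not. KRT80 is at 1.45 and 2.00 in the membrane comparisons, and KRT8 is at -0.84 in monoculture.

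Adding fibroblasts on silk brought 0 of 6 members past the threshold in limma's test, with 2 members at an unadjusted p under 0.05, KRT10 and KRT7; 3.78% of all genes passed, 2.91% higher and 0.866% lower. KRT10 stood at 176, 214 and 158 in silk monocultures and at 311, 270 and 267 in silk co-cultures. Every co-culture was above every monoculture, with a log2 fold change of 0.64 ± 0.18 (adjusted p = 0.053892). KRT10 passed on the deposited log2 values (adjusted p = 0.04926), on epithelium-restricted scaling (adjusted p = 0.01692), with only these 6 libraries in the fit (adjusted p = 0.03764) and without LN/PC monoculture 2 (adjusted p = 0.04309). Mixing the silk and fibroblast monocultures at the estimated fibroblast share would put KRT10 at 100% of its silk monoculture level, and 155% was observed. KRT7 was lower in each silk co-culture than in each silk monoculture, at -1.13 ± 0.41 (adjusted p = 0.15714). KRT8 (-0.01 ± 0.18) and KRT18 (0.03 ± 0.13) had nearly the same means in both, and the sign of each depended on the setting. KRT80 was 0.17 ± 0.21 and KRT19 0.34 ± 0.19.

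On LN/PC, KRT18 was lower in co-culture. It stood at 2765, 2957 and 2966 normalized counts in LN/PC monocultures 1 to 3 and at 1938, 2150 and 1962 in LN/PC co-cultures 1 to 3. The groups did not overlap, and the log2 fold change was -0.52 ± 0.13 (limma, adjusted p = 0.016135). It was the 1 member called of 6, in a comparison where 7.8% of all genes were higher and 4.72% lower. The libraries also differed in fibroblast RNA: mixing the monocultures at the estimated shares would put KRT18 at 87.0% of its monoculture level, and 69.6% was observed. With that RNA subtracted the difference was -0.32 (adjusted p = 0.1113), and on epithelium-restricted scaling -0.07 (adjusted p = 0.729). KRT18 also missed the threshold with only these 6 libraries in the fit (adjusted p = 0.07291) and without LN/PC co-culture 1 (-0.50, adjusted p = 0.09241) or 3 (-0.50, adjusted p = 0.06335).

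The other simple keratins stood below their LN/PC monoculture means without passing. KRT8 averaged 7719 ± 1477 in LN/PC co-cultures, 86.1% of the mixture level (log2 fold change -0.42 ± 0.18, adjusted p = 0.15681). KRT19 stood at 2639, 3794 and 3281 in LN/PC monocultures against 1747, 2676 and 2124 in co-cultures, which overlapped (-0.58 ± 0.19, adjusted p = 0.058283). Its mean was 77.3% of the mixture level, and it passed without LN/PC co-culture 2 (-0.73, adjusted p = 0.03261), LN/PC monoculture 1 (-0.71, adjusted p = 0.04305) or silk monoculture 3 (adjusted p = 0.04722). KRT80 averaged 88.2% of the mixture level (-0.37 ± 0.21). KRT10 stood at 246, 284 and 272 in LN/PC co-cultures, all above the 3 monocultures, and at 121% of the mixture level (0.36 ± 0.18, adjusted p = 0.19674). On epithelium-restricted scaling the KRT10 difference was 0.82 (adjusted p = 0.002678). KRT7 averaged 37.3 ± 11.2 in co-cultures and 24.3 ± 8.74 in monocultures, with overlap (0.62 ± 0.41).

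The response to co-culture differed between membranes for KRT19. The interaction, the co-culture change on silk minus that on LN/PC, was 0.91 ± 0.27 (limma, adjusted p = 0.048001), with KRT19 at 0.34 on silk and -0.58 on LN/PC. It was the 1 member called of 6, where 7.73% of all genes were called, 3.15% higher and 4.59% lower. The call was lost without any one of 9 of the 12 libraries (adjusted p up to 0.1609), kept without LN/PC monoculture 1, LN/PC co-culture 2 or silk monoculture 2, and lost with the fibroblast RNA subtracted (0.71, adjusted p = 0.1518), with epithelium-restricted scaling (0.58, adjusted p = 0.1573) and with upper-quartile scaling (0.82, adjusted p = 0.08109). It was also lost with the replicate block (adjusted p = 0.05428). KRT7 had the largest interaction of the 6 (-1.75 ± 0.59, adjusted p = 0.08513). It passed on epithelium-restricted scaling (-2.07, adjusted p = 0.03371).

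Ratios of keratins within a library do not depend on scaling between libraries. These ratios were chosen after the values were seen, and 16 were tested by exact two-sided permutation tests, for which 3 libraries against 3 allow no p under 0.1; the smallest adjusted p was 0.267. KRT8 per kb was 1.46, 1.94 and 2.08 times KRT18 on silk and 2.73, 2.15 and 2.96 times KRT18 on LN/PC in monocultures 1 to 3. In co-cultures the ratio was 1.83, 1.71 and 1.71 on silk and 2.82, 3.19 and 2.40 on LN/PC. The lowest LN/PC library was above the highest silk library in both settings (exact permutation p = 0.1 for each). KRT80 was 3.31%, 2.59% and 2.94% of KRT8 on silk and 0.742%, 0.590% and 0.479% on LN/PC in monocultures. In co-cultures it was 3.68%, 3.24% and 3.09% on silk and 0.615%, 0.410% and 0.911% on LN/PC, again without overlap.

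The sum of type II members (KRT8, KRT7, KRT80) was also set against that of type I members (KRT18, KRT19, KRT10, KRT17). In co-cultures the ratio was 0.667, 0.717 and 0.674 on silk and 1.35, 1.29 and 1.05 on LN/PC (exact permutation p = 0.1). In monocultures it was 0.683, 0.818 and 0.951 on silk and 1.30, 0.868 and 1.30 on LN/PC, where the groups overlapped (exact permutation p = 0.2). KRT19 was 1.21, 1.39 and 1.21 times KRT18 per kb in silk monocultures and 1.77, 1.39 and 1.56 times in silk co-cultures. On LN/PC the KRT19 to KRT18 ratio averaged 1.25 in monocultures and 1.21 in co-cultures.

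**Figure D3:**
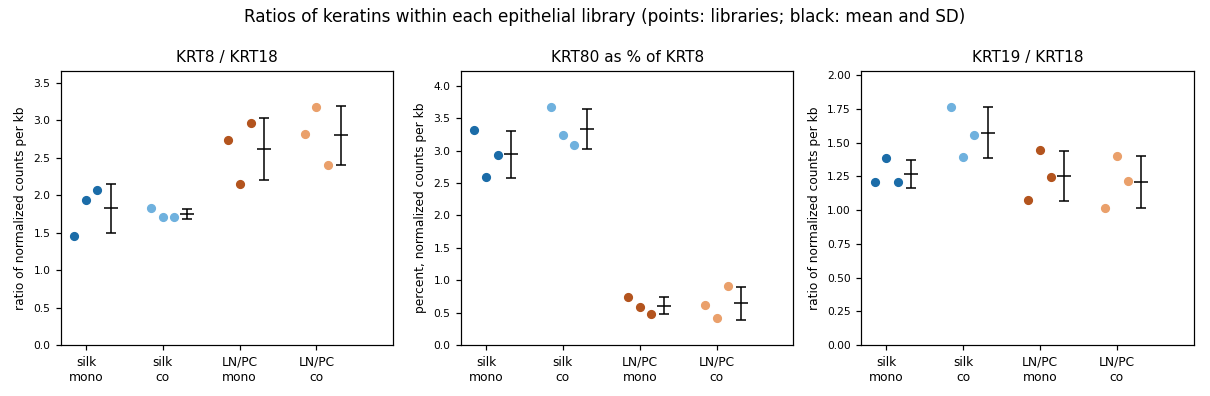
Within-library ratios of keratin levels per kb in the 12 epithelial libraries (y axes linear from 0), 3 points a group with the mean and SD in black. The KRT8 to KRT18 ratio and KRT80 as a percent of KRT8 separate silk from LN/PC libraries in both culture settings.

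KRT17 and the keratins outside the list were low. KRT17 stood at 0.385, 1.78 and 0 normalized counts on silk alone and at 0.461, 0 and 0 on silk with fibroblasts. On LN/PC it stood at 7.58, 5.12 and 8.35 in monoculture and at 4.10, 10.5 and 6.96 in co-culture, and in fibroblasts at 4.73, 12.1 and 7.35. These are a few reads a library, and KRT17 has near-identical relatives whose reads can be split between genes, so its values are uncertain. KRT15, a type I keratin of basal epidermis, stood at 9.56, 7.23 and 7.34 on silk and 15.01, 39.2 and 67.2 on LN/PC in monoculture, and was lower on silk (-1.97 ± 0.54, limma, adjusted p = 0.027316). KRT222 was at 0 in fibroblasts. Of these 3 other keratins, a single one was lower on silk in each membrane comparison, KRT15 in monoculture and KRT34, a hair keratin, in co-culture. KRT8 has processed pseudogenes, of which KRT8P3 and KRT8P12 were in the table at no more than 42.6 in a library. KRT10 shares its locus with an antisense gene, KRT10-AS1, at 87.5 to 195 normalized counts; the kit keeps strand, but strand use in counting was not given in the sources used here, so reads of these genes may not be told apart.

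Partners of keratin filaments are given from lists of genes, read against the percentages of all genes above. The 9 renal epithelium markers also differed. On silk 4 were higher and 1 lower in monoculture (median 0.53), and 6 higher and 0 lower in co-culture (median 0.88). Co-culture on LN/PC raised 0 and lowered 4 of them (median -0.48). Whether partner genes differed beyond such markers was not tested. Desmosome genes had 7 tested members. In co-cultures 3 were higher and 1 lower on silk (median 0.45), among them PERP (1.54), a membrane protein of desmosomes, PKP2 (1.24), a plakophilin, and DSP (0.79, adjusted p = 0.008309), desmoplakin, which ties keratins to the plaque. In monocultures 1 was higher, PERP (0.64), and 1 lower, PKP4 (-0.66). Co-culture on silk raised 1 of 7, PERP (0.81, adjusted p = 0.01494), and co-culture on LN/PC lowered 2 of 7, JUP, plakoglobin (-0.97, adjusted p = 0.002023), and PKP4 (-0.66). DSP was at 1407 in fibroblasts and 2733 in LN/PC monocultures, so this gene is not specific to the epithelial line; 7 of 7 desmosome genes were lower in fibroblasts.

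Hemidesmosome and plakin genes had 9 tested members. ITGB4, the integrin subunit that keratins reach through plectin, averaged 3047 ± 424 on silk in monoculture and 6218 ± 659 in co-culture, against 1702 ± 638 and 1708 ± 45.9 on LN/PC. It rose on silk in monoculture (0.89 ± 0.20, adjusted p = 0.01145), in co-culture (1.86, adjusted p = 4.948e-06), and with co-culture on silk (1.03, adjusted p = 0.007513). In monocultures 2 of 9 were higher on silk, ITGB4 and EVPL (envoplakin), and in co-cultures 3 of 9, with PPL (periplakin, 0.71) besides. No member of this list was called lower on silk in either comparison. In monoculture the list median was still -0.17. COL17A1 averaged 127 on silk and 228 on LN/PC there, and CD151 4475 and 6198, both without overlap. With co-culture on LN/PC 0 of 9 passed limma's test (1 at an unadjusted p under 0.05). Co-culture on silk raised 2 of 9, ITGB4 and PPL (0.82, adjusted p = 0.04526).

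Genes known to bind keratins or regulate their filaments had 13 tested members. In monocultures 1 was higher on silk, SFN, a 14-3-3 protein that binds keratins (0.85), and 3 were lower, among them the chaperones HSPB1 (-0.90) and DNAJB6 (-0.74). In co-cultures 2 were higher, SFN (1.88, adjusted p = 4.751e-06) and FAM83H (1.13), a protein that organizes keratin filaments, and 2 lower, with HSPB1 at -1.09. Co-culture on silk lowered 1 of 13, FBF1, a keratin-binding protein (-1.32, adjusted p = 0.02674), and raised 0. SFN was at 0 in fibroblasts. FAM83H fell with co-culture on LN/PC (-0.93, adjusted p = 0.001075), as did SFN (-0.70), in libraries with a fibroblast RNA share of 9.81% to 15.2%. In limma's test of the interaction of membrane and co-culture, 2 of 7 desmosome genes passed, PERP (0.90, adjusted p = 0.03831) and DSP (1.1, adjusted p = 0.030745). Of the 13 genes here 2 passed, SFN (1.03, adjusted p = 0.038393) and FAM83H (1.148, adjusted p = 0.0055431). All were in the direction of a higher co-culture response on silk. Of the hemidesmosome and plakin list 0 of 9 passed. Of the other intermediate filaments below, 1 of 9 was higher and 1 lower. Among the transcription and splicing regulators below, 1 of 12 was higher and 6 were lower. Over all genes tested, 3.15% were higher and 4.59% lower. For these partner genes the part of fibroblast RNA was not tested.

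Other intermediate filaments had 9 tested members. On silk 2 were higher and 0 lower in monoculture, and 3 higher and 2 lower in co-culture. Co-culture raised 1 and lowered 0 on silk, and raised 2 and lowered 2 on LN/PC. NEFL, the neurofilament light chain, averaged 734 ± 37.4 on silk in monoculture and 1277 ± 103 in co-culture, against 330 ± 45.1 and 226 ± 38.7 on LN/PC. It was higher on silk in monoculture (1.16 ± 0.16, adjusted p = 0.0003227) and in co-culture (2.50, adjusted p = 2.335e-08), rose with co-culture on silk (0.80, adjusted p = 0.008535), and its interaction was 1.35 (adjusted p = 0.0010539). SYNM, synemin, was higher on silk in monoculture (0.72, adjusted p = 0.04352) and in co-culture (1.44, adjusted p = 0.0001271) and fell with co-culture on LN/PC (-0.75, adjusted p = 0.03385). NES, nestin, went the other way in co-culture, lower on silk (-2.57, adjusted p = 4.151e-05) and raised by co-culture on LN/PC (2.97, adjusted p = 1.154e-05). NES averaged 35.8 on silk and 26.4 on LN/PC in monoculture, 224 in LN/PC co-cultures and 810 in fibroblasts. VIM, vimentin, the filament protein of mesenchymal cells, averaged 37285 on silk and 26282 on LN/PC in monoculture and 147943 in fibroblasts, so both lines held it. VIM rose with co-culture on LN/PC (1.40, adjusted p = 0.0007227), where mixing at the estimated fibroblast share would give 160% of the monoculture level and 264% was observed. On silk it averaged 60933 in co-cultures, without overlap with the monocultures (0.71, adjusted p = 0.1225).

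**Figure D4:**
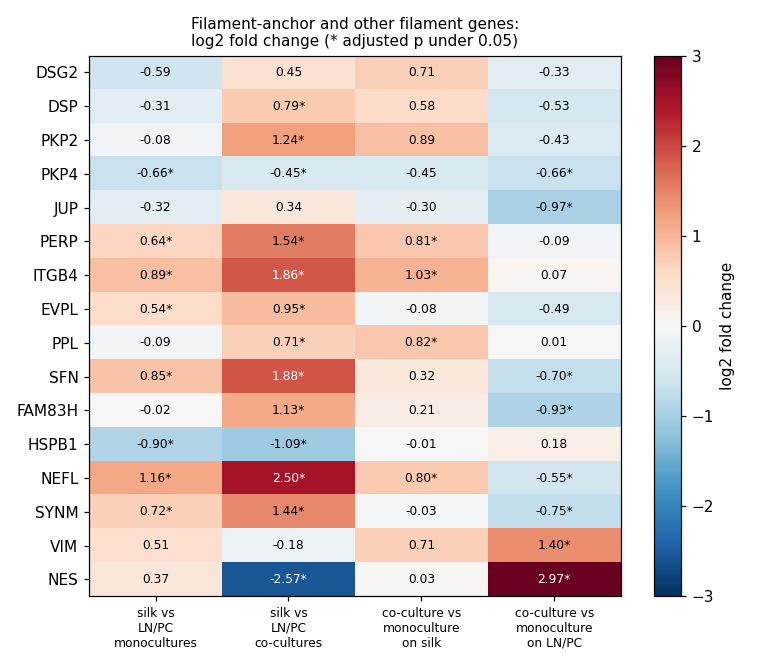
Log2 fold changes of filament-anchor and other filament genes (rows) in the 4 comparisons among epithelial groups (columns), with red for higher, blue for lower and an asterisk for an adjusted p under 0.05. ITGB4, PERP, SFN and NEFL are higher on silk in both membrane comparisons, and HSPB1 and PKP4 are lower.

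Epithelial transcription and splicing regulators had 12 members tested among epithelial groups. In monocultures 1 was higher and 1 lower on silk, ELF3, an epithelial factor, at -0.62 (adjusted p = 0.02224). In co-cultures 2 were higher and 5 lower, with the mesenchymal factors TWIST2, ZEB2 and SNAI2 at -6.15, -2.67 and -2.13. The fibroblast line holds these 3 genes, and TWIST2 averaged 985 there against 2.10 in LN/PC monocultures. Co-culture on silk raised 3 of 12 and lowered 0. The raised genes were KLF4 (2.82, adjusted p = 0.0001751) and KLF5 (0.93, adjusted p = 0.00229), zinc-finger factors of epithelia, and SNAI2 (1.83, adjusted p = 0.028615), a mesenchymal factor whose means were 10.4 in monoculture and 35.3 in co-culture on silk, named here outside the rule for named genes. KLF4 was itself higher in fibroblasts than in epithelial monocultures (3.89, adjusted p = 1.0426e-06). Co-culture on LN/PC raised 6 of 12, with TWIST2 at 6.45, SNAI2 at 5.00 and ZEB2 at 3.43, and lowered 1, beside the fibroblast RNA given above.

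Fibroblasts lacked many of these partners. DSG2 and PKP2 of the desmosome, EVPL and COL17A1 of the hemidesmosome and plakin list, SFN and ELF3 were at 0 in all 3 fibroblast libraries. JUP averaged 78.1 ± 14.5 normalized counts there, FAM83H 55.1 ± 11.8, HSPB8, a small heat shock protein, 7.69 ± 4.15, ITGB4 4.06 ± 5.07 and NEFL 1.92 ± 1.69 (SD, n = 3). TWIST1, at 238 ± 5.22 in fibroblasts, was at 0 in the epithelial monocultures. Of the hemidesmosome and plakin list 3 of 9 were higher and 5 lower in fibroblasts, of the keratin-associated list 5 and 4 of 13, of the other intermediate filaments 5 and 4 of 9, and of the regulators 7 and 6 of 13.

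The genes at the smallest distance from each keratin were found over the 12 epithelial libraries among 9988 genes, by the root-mean-square distance of centred log2 levels. For KRT80 they were ME1 (0.24), FHDC1 (0.25) and OGDHL (0.27), and for KRT8 TSEN54 (0.10), SIN3A (0.11) and GSS (0.11). For KRT18 they were ARHGEF18, AUH and OSBPL10 (each 0.09), and for KRT19 LRPAP1 (0.13), RMND5B (0.15) and RTKN (0.15). For KRT10 they were BTBD6 (0.10), CCDC59 (0.13) and CDK4 (0.15). KRT7, which varied more (SD 0.66 over the 12 libraries, against 0.21 for KRT18), had SLC38A11 (0.42), KCNJ15 (0.46) and PROM1 (0.47). KRT17, at a few reads, had PCSK6 (0.49), SUSD4 (0.53) and SERPINA1 (0.54). Among the members the closest pair was KRT18 and KRT19 (0.22), and KRT8 and KRT18 lay 0.34 apart. A gene with no change would lie at a keratin's own SD, 0.21 for KRT18 and 0.39 for KRT8. The distance of KRT18 and KRT19 therefore does not show a shared pattern. The 12 points share 4 groups and their library scaling, so these distances describe these libraries.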

How the data were processed

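Poly-A RNA was sequenced from 15 libraries. The submitters' processing notes name Salmon 1.10.3 and DESeq2. Genome build and annotation were not given in the sources used here. A table of 15790 genes was deposited by the authors, described as normalized counts, whose log2 values have a common floor of 5.53664461, the form a variance-stabilizing transformation gives. The transformation was inverted with that floor as its constant. As a check, the median ratio to the gene-wise geometric mean over 13121 genes was 1.01175 in each library (spread 6.27e-09), against 0.9942 to 1.002 for 2 raised to the deposited log2 value. Whole reads were not recovered, because 27.9% to 47.6% of the low values came within 0.1 of one, and no count model was fitted. Floors of 3 reads cover counting error only.

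Genes with 10 or more normalized counts in 3 or more of a fit's libraries were tested with limma 3.58.1 (R 4.3.3) on log2(normalized count + 1), a scale that understates changes of low genes. The 12 epithelial libraries entered 1 fit, and 9 monoculture libraries the fit of fibroblasts against the average of both epithelial monocultures. The linear unit had been planned for, and the inversion as its fallback. Scripts were tested on simulated data. Permutation tests used SciPy 1.17.1. Lengths per kb come from the longest principal transcript in GENCODE v29. The members and gene lists were chosen with earlier results of these data known. Every member is named. From each other list up to 3 called genes a comparison are named, those with the largest change and a higher-group mean of 100 or more. For each member the 3 genes at the smallest distance are named. Alternatives covered scaling (upper quartile, epithelium-restricted genes), pseudocount, filter, deposited log2 values, subtraction of fibroblast RNA, the libraries fitted, a replicate block and leaving out each library.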

Additional observations from a re-analysis of the deposited data

Results flagged for a closer look

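The change of KRT19 with co-culture differed between the membranes by the test of the interaction itself, at 0.91 on the log2 scale (limma, adjusted p = 0.048001). KRT19 averaged 2645 ± 496 normalized counts on silk alone and 3313 ± 353 with fibroblasts, and 3238 ± 578 on LN/PC alone and 2182 ± 468 with fibroblasts (SD, n = 3 each). The LN/PC co-cultures held a mean fibroblast RNA share of 13.0%, and with that RNA subtracted the interaction was 0.71 (adjusted p = 0.1518). The call lay close to the threshold and was lost without any one of 9 of the 12 libraries (adjusted p up to 0.1609). It was also lost with upper-quartile scaling, with epithelium-restricted scaling and with the replicate block.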

How the results depend on the processing

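Of the member values under alternatives, 622 kept direction and side of the threshold, 23 lost the call, 17 gained it and 10 changed sign. The count of members called on silk between co-culture and monoculture went from 0 to 1 on deposited log2 values, on epithelium-restricted scaling and with only the libraries compared. On LN/PC it went from 1 to 0 with fibroblast RNA subtracted and with only the libraries compared. The interaction went from 1 to 0 with fibroblast RNA subtracted, with upper-quartile scaling and with the replicate block. With each library left out in turn the counts ranged from 0 to 1 for co-culture on silk, 0 to 2 on LN/PC, 0 to 1 for the interaction, 1 to 3 between co-cultures, 2 to 2 between monocultures and 6 to 6 for fibroblasts. Sign changes on epithelium-restricted scaling gave -0.34 for KRT10 and -0.19 for KRT18 between co-cultures, 0.11 for KRT8 with co-culture on silk, 0.034 for KRT8 and 0.077 for KRT80 with co-culture on LN/PC, and -0.061 for the KRT10 interaction. Upper-quartile scaling gave -0.028 for KRT18 with co-culture on silk, and leaving out 1 library gave -0.13 to 0.10 for KRT8 and -0.076 to 0.10 for KRT18 there. The cause of these changes was not tested. Deviations from the group mean correlated at -0.254 to 0.189 between same-numbered libraries and at -0.2535 to 0.3267 between differently numbered ones. Only 4 of 15 libraries correlated best with their own number. No pairing by number was seen, but with 3 libraries a group a weak one could be missed. With the replicate block the KRT19 interaction had an adjusted p of 0.05428 (limma). Counts over all genes moved by over 1.5 times with only the libraries compared (1685 to 754 between monocultures, 545 to 1174 for co-culture on silk, 1807 to 1088 on LN/PC), on epithelium-restricted scaling (4341 on LN/PC), with fibroblast RNA subtracted (1116 to 676 for the interaction) and without 1 library (695 to 3208, 207 to 819, 753 to 2007, 465 to 1359, and 3415 to 5732 between co-cultures against 5214). On epithelium-restricted scaling the percent of calls that were higher moved from 50.4 to 36 between monocultures, 51.3 to 16.6 between co-cultures, 77.1 to 91 for co-culture on silk (66.2 with upper quartile), 62.3 to 97 on LN/PC and 40.7 to 13.1 for the interaction (30.4 with upper quartile). Without the low-value filter KRT17 was also called in both membrane comparisons.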

Other observations

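KRT34, a type I keratin of hair, stood at 65.3, 40.5 and 59.9 normalized counts in LN/PC co-cultures 1 to 3 and at 0 in each LN/PC monoculture. Fibroblasts alone held 22.8, 13.8 and 18.4, below each LN/PC co-culture. Mixing the monocultures at the estimated fibroblast share would give 2.38, against a mean of 55.3 ± 13.1 (SD, n = 3) observed. Silk co-cultures 1 to 3 held 0, 0.944 and 0.892.

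KLF4 averaged 33.9 ± 13.3 in silk monocultures and 233 ± 21.2 in silk co-cultures, where the fibroblast share of RNA was at most 0.113%. In LN/PC monocultures it averaged 68.2 ± 27.3, in LN/PC co-cultures 250 ± 60.9 and in fibroblasts 687 ± 92.1.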
